A study of Monodelphis domestica with 25 samples.

Results

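The 8 libraries described here, of 25 in the series, come from the treatment experiment and compare cultured blood exposed to perfluorooctanoic acid (PFOA) with control cultures. They were chosen by their labels as the 4 PFOA and 4 control columns of the treatment count table, and each PFOA library was read against the controls of its own time. The donor species was Monodelphis domestica (LSD strain), the gray short-tailed opossum, which is a marsupial kept as a laboratory animal. Per the labels' protocols, blood diluted in RPMI-1640 medium was held in multi-well plates, and poly(A) RNA was made into strand-keeping libraries. Controls were sampled at 12 h (R1 and R2) and 24 h (R2 and R3), and PFOA was given at a low and a high concentration, each with 1 library at 12 h (both R2) and 1 at 24 h (both R1). Low and high are read here as 400 and 800 µM, because the protocol lists these concentrations of PFOA in that order. All treated and control cultures held 0.1% dimethyl sulfoxide per the protocol, yet the controls are labelled untreated, so the solvent in the controls is not certain. All 8 titles share the identifier A9394, and the labels do not say whether R1 to R4 are animals, blood draws or wells. All p-values therefore rest on the spread among these cultures, and that spread may be technical. Within PFOA, time and R number cannot be told apart. At 24 h the PFOA libraries (R1) and the controls (R2 and R3) share no R number. Treatment and R number therefore cannot be told apart at that time. The only other libraries of the experiment, 2 with the replacement compound GenX at 1200 µM (12 h, R3 and R4), entered some fits to share the estimate of spread.

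PFOA is a perfluorinated carboxylic acid, a surfactant-like molecule that animals barely break down. In mammals it is known to activate the nuclear receptor PPARα, which controls fatty acid use, and to alter immune cells and antibody responses. Whole blood mixes red cells, white cells and platelets, and its RNA in culture changes as cells age, respond to the dish and die. In such bulk samples, fewer cells of a type and less RNA per cell cannot be told apart. The counts are given per Ensembl transcript identifier, and the files and the reference table used here pair none of them with a gene name. Markers of blood cells and PPAR targets could therefore not be read, transcripts are described by identifier and by their behaviour in the series' separate untreated time course, and no sequence is shown.

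PFOA libraries were smaller than controls, and more of their counts sat in the 10 most abundant transcripts. Totals were 8902853 and 11685427 counts in the 12 h controls, 4027470 at 400 µM and 2412085 at 800 µM at 12 h, 4487453 and 5304715 in the 24 h controls, and 754708 and 366269 at 400 and 800 µM at 24 h. All 4 PFOA totals lay below both controls of their time (exact two-sided permutation test within times, p = 0.0556, the smallest that the 36 arrangements allow, 0.111 adjusted over 4 measures). The 10 most abundant transcripts made up 4.61 to 5.17% of the counts in controls, 5.82 and 7.01% in the 400 µM libraries, and 9.84 and 19.03% in the 800 µM libraries, again outside the controls in every PFOA library (p = 0.0556, adjusted 0.111, same exact test). The 12 h GenX libraries shared both traits. Their totals were 6433771 (R3) and 3654215 (R4), below both 12 h controls, and their shares were 5.56 and 7.49%, above all controls. The share of the 100 most abundant separated less clearly (p = 0.111, adjusted 0.148, same exact test), with 3 of the 4 PFOA libraries above both controls of their time. At 12 h and 400 µM it was 23.26%, against 23.51 and 21.53% in the 12 h controls. At 24 h and 800 µM, 204 transcripts supplied 50% of all counts, against 574 to 677 in controls. The other PFOA libraries needed 615 (400 µM, 12 h), 486 (800 µM, 12 h) and 499 (400 µM, 24 h). Transcripts detected at equal depth did not separate the groups, at 10330 to 11486 with PFOA and 10761 to 11844 in controls (exact permutation p = 0.778). A floor of 3 counts equals 0.239 to 0.613 CPM (a library's counts scaled to a common total) in controls, 0.723 to 3.75 CPM at 400 µM, and 1.31 and 9.52 CPM at 800 µM, so low levels were least well measured in the 24 h library at 800 µM. CPM values carry TMM factors throughout, and floors and counting intervals cover counting error only.

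**Figure D1:**
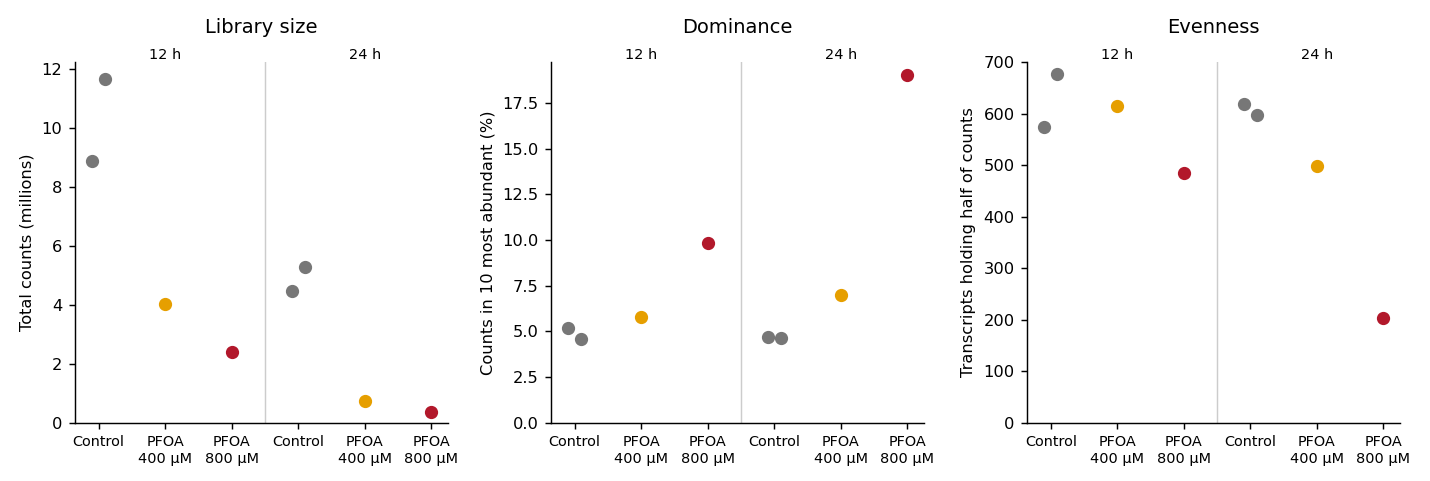
Library size (total counts, in units of 1000000), share of counts in the 10 most abundant transcripts (%) and number of transcripts holding 50% of the counts, one point per library; controls grey, 400 µM PFOA orange, 800 µM PFOA red, 12 h left and 24 h right of the line. The 24 h library at 800 µM has 366269 counts, 19.03% of them in 10 transcripts, and 204 transcripts holding 50% of the counts.

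The 10 leading transcripts of each PFOA library were then read in the controls of its time. They were picked by their level in that PFOA library, which favours values above control, so these values are descriptions. In the 24 h library at 800 µM, all 10 stood at least 2-fold above both 24 h controls, and they held 19.03% of that library against 2.41 and 2.69% of the controls. Of these 10, 2 were also among the 10 leading transcripts of the controls. Without the single transcript that dominates fresh blood, described further on, the share was still 13.5% against at most 2.23% in the controls. At 24 h and 400 µM, 3 of the 10 leaders were at least 2-fold above both controls, and in each 12 h PFOA library 1 was.

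Over both times together, the main test called few transcripts between PFOA and control, and the clearest was ENSMODT00000001267, nearly absent with PFOA. This transcript was at 65.0 and 63.1 CPM in the 12 h controls and at 57.0 and 69.4 CPM in the 24 h controls. With PFOA at 12 h it stood at 0.964 CPM (400 µM) and 0.871 CPM (800 µM). With PFOA at 24 h it stood at 2.499 CPM (400 µM) and had no count at 800 µM, where 3 counts would be 9.52 CPM. Every PFOA library lay below every control, at both concentrations and both times. The log2 fold change was -5.84 (SE 0.412, Benjamini-Hochberg adjusted p = 4.84e-06 in edgeR's quasi-likelihood test, given below as edgeR adjusted p). The 4 PFOA libraries together held 8 counts where the control level of their times predicts 483, which is 1.66% of it (exact Poisson 95% interval 0.715 to 3.26%). Its call held in all 18 alternative analyses of this comparison. In untreated blood of the time course the same transcript was nearly absent when fresh and accumulated in culture, with medians of 0.269 CPM at 0 h, 111 CPM at 12 h and 789 CPM at 24 h (3 libraries per time). The controls of the treatment experiment showed no such rise from 12 to 24 h, with means of 64.0 and 63.2 CPM. The 2 experiments were scaled separately, so their levels are not tested against each other.

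ENSMODT00000003531 was lower in the same libraries. The 12 h controls had 17.4 and 14.97 CPM of it and the 24 h controls 16.4 and 16.9 CPM. PFOA cultures had 0.964 (400 µM) and 0.871 CPM (800 µM) at 12 h, and 0 (400 µM) and 3.17 CPM (800 µM) at 24 h. The groups did not overlap, but the 24 h PFOA values rest on 1 count in all, so a level up to 30.1% of control is allowed there. It fell by 4.09 on the log2 scale over both times (SE 0.543, edgeR adjusted p = 0.0106). The call was lost without the 12 h control R2 (adjusted p = 0.0944) or the 12 h library at 800 µM (0.165), with the log2 change at -4.16 and -4.06. In the untreated time course it too rose from a median of 0.636 CPM at 0 h to 241 CPM at 12 h and 325 CPM at 24 h. The control means of the treatment experiment were level, at 16.2 CPM at 12 h and 16.6 CPM at 24 h.

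Among 12565 transcripts tested, 10 (0.0796%) were called at an adjusted p under 0.05 over both times, 7 higher (0.0557%) and 3 lower (0.0239%) with PFOA. In each of the 10, the PFOA libraries lay on one side of the controls at both times, which was so for 18.1% of all transcripts tested. The 7 that rose had log2 fold changes of 1.91 to 3.35. Among them ENSMODT00000014456 had the largest rise, from 0.226 and 0.398 CPM in the 12 h controls to 2.65 CPM at 400 µM and 6.10 CPM at 800 µM. At 24 h it was at 7.36 and 5.08 CPM in controls, 41.2 CPM at 400 µM and 76.1 CPM at 800 µM. Controls and PFOA libraries separated within each time, although the 12 h PFOA levels did not exceed the 24 h control range (log2 fold change 3.35, SE 0.586, edgeR adjusted p = 0.0494). The 12 h GenX libraries had 1.40 CPM (R3) and 7.89 CPM (R4) of it, also above both 12 h controls. ENSMODT00000002761 was at 61.7 and 41.2 CPM in 12 h controls, at 91.8 and 233 CPM with 400 and 800 µM, at 95.2 and 80.0 CPM in 24 h controls, and at 595 and 822 CPM with 400 and 800 µM. Its CPM was higher in all 4 PFOA libraries than in both controls of their time (log2 fold change 2.33, SE 0.356, edgeR adjusted p = 0.0240). Its raw counts at 12 h were 547 and 517 in controls and 381 and 536 with 400 and 800 µM. At 24 h they were 466 and 441 in controls and 476 and 259 with 400 and 800 µM. The higher CPM thus went with smaller library totals rather than with more counts, and the cause was not tested.

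All 7 transcripts that rose were higher in CPM at 800 than at 400 µM at both times, an order that 23.0% of all transcripts tested showed. The 800 µM library also had the smaller total at each time. ENSMODT00000027014, among the 7, had 2400 to 3126 raw counts in controls and 2005 to 2454 with PFOA. ENSMODT00000022153, also among them, had 305 and 482 in 12 h controls and 534 and 527 with PFOA at 12 h. Whether the order followed library size was not tested. The median of the 7, as a log2 ratio to own-time controls on the log2(CPM + 1) scale, was 1.01 at 400 µM and 2.09 at 800 µM at 12 h, and 2.31 and 3.22 at 24 h. The 3 that fell had medians of -3.12, -3.19, -4.14 and -2.08 in the same libraries, with no common order of the concentrations. These medians describe transcripts picked from the same libraries. The third transcript that fell is ENSMODT00000007603, named here because 3 in all did and with its values known, at 186 and 137 CPM in 12 h controls and 90.9 and 121 CPM in 24 h controls. In the PFOA libraries it was at 38.1, 25.3, 33.7 and 57.1 CPM (400 and 800 µM at 12 h, then at 24 h; log2 fold change -1.89, SE 0.291, edgeR adjusted p = 0.0240). The 12 h GenX libraries, at 62.6 CPM (R3) and 52.5 CPM (R4), were below both 12 h controls as well. ENSMODT00000007603 lost its call without the 12 h control R1 (adjusted p = 0.0736) or R2 (0.125), the 24 h control R3 (0.176), or the 12 h library at 400 µM (0.0501) or 800 µM (0.323).

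**Figure D2:**
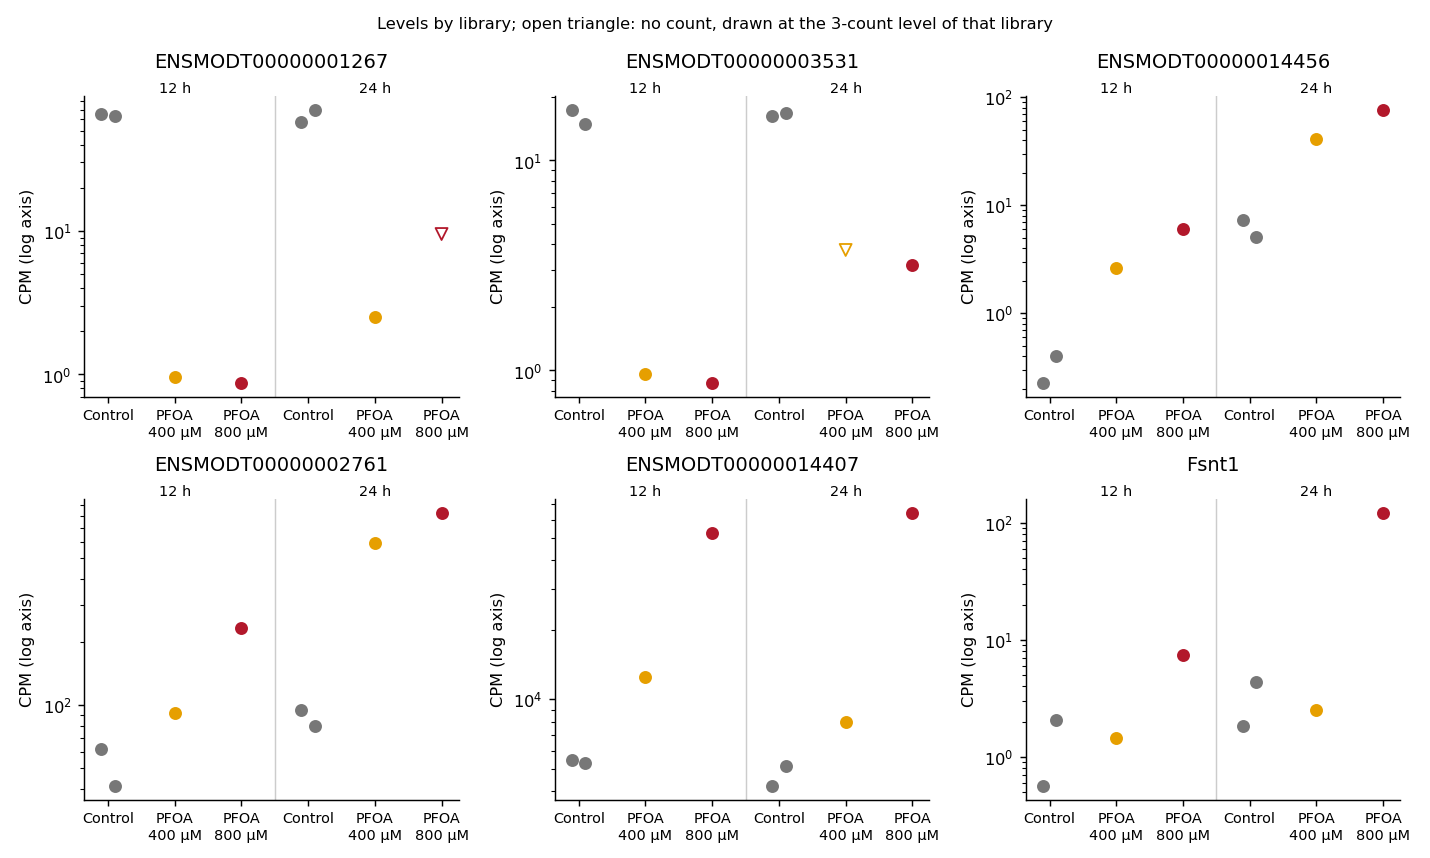
Level of 6 features in each library (CPM, log axis), controls grey, 400 µM PFOA orange, 800 µM PFOA red; an open triangle marks a library with no count, drawn at its 3-count level. The upper row's first 2 transcripts are far lower with PFOA at both times, whereas ENSMODT00000014407 and Fsnt1 stand apart at 800 µM, at 64069.6 and 120.5 CPM in the 24 h library.

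The number of calls over both times depended on single libraries and on the method. DESeq2 called 734 (549 higher) and 1972 transcripts had an unadjusted p under 0.05, so the short list does not show that other transcripts were unaffected. The balance of directions changed too, with 2 higher and 2 lower under RLE scaling, and 1 higher and 10 lower without the 2 PFOA libraries under 1000000 counts, an alternative added after the data were seen. Leaving out the 24 h library at 800 µM gave 95 calls (53 higher), and leaving out that at 400 µM gave 18. The number was 31 when the 12 h library at 400 µM was dropped, 3 when either 24 h control was, and 1, a transcript lower with PFOA, when the 12 h control R2 or the 12 h library at 800 µM was. Both ENSMODT00000014456 and ENSMODT00000002761 lost their calls without the 12 h control R2 (adjusted p = 0.163 and 0.125), the 24 h control R2 (0.274 for both), the 24 h control R3 (0.305 and 0.285) or the 12 h library at 800 µM (0.323 for both). ENSMODT00000014456 also lost it without the 12 h control R1 (0.113) or the 24 h library at 400 µM (0.0583).

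Read within each time, PFOA against control gave 1 call at 12 h and 1 at 24 h, of 12369 transcripts tested (0.00808% in each). Both were the fall of ENSMODT00000001267. At 12 h its log2 fold change was -6.07 (SE 0.469, edgeR adjusted p = 0.000528), with 6 counts in the PFOA libraries, 1.45% of the control level (exact Poisson interval 0.534 to 3.17%). At 24 h it was -5.13 (SE 0.617, edgeR adjusted p = 0.0482), with 2 counts, 2.84% of the control level (0.343 to 10.2%). The 12 h call was lost without either 12 h PFOA library (adjusted p = 0.167 and 0.0918). The 24 h call was lost without any 1 of the 4 controls or of the 2 libraries of the other time (adjusted p = 0.142 to 0.362).

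More transcripts passed in some neighbouring analyses of the same times. At 12 h, a fit of the 4 libraries of that time alone called 78 transcripts (31 higher, 47 lower), and the count was 46 and 64 without the 24 h library at 400 and at 800 µM. DESeq2 called 70 (57 higher). At 24 h, DESeq2 called 1092 (786 higher) and 2747 transcripts had an unadjusted p under 0.05. The 24 h count was 3435 (1257 higher) without the 400 µM library, 193 (104 higher) without the 800 µM library and 0 without any 1 of the other 6. Over all transcripts the median log2 fold change was 0.04 at 12 h and -0.13 at 24 h.

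Whether the PFOA effect itself changed from 12 to 24 h was tested as an interaction, and no transcript of 12369 was called (smallest edgeR adjusted p = 0.547). At an unadjusted p under 0.05 there were 1081, and DESeq2 called 7, all with a more positive change at 24 h. The 95% interval of this difference lay within 2-fold for 1.91% of transcripts, so the data do not show that the effects were alike. Without the 24 h library at 400 µM 2227 were called (711 higher), and without that at 800 µM 2 were. The median of all transcripts moved from -0.20 to -0.08 with RLE in place of TMM scaling. Among 5508 transcripts with enough counts at equal depth, the 12 h and 24 h log2 fold changes, which rest on different libraries but one model, had a Pearson r of 0.428 and a Spearman rho of 0.358, and 61.4% had the same sign. Their SD was 0.38 at 12 h and 0.83 at 24 h. These are values across transcripts, which are not independent replicates.

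At 400 µM, 1 of 12565 transcripts was called against control (0.00796%), again ENSMODT00000001267 (log2 fold change -5.61, SE 0.534, edgeR adjusted p = 0.000146). Dropping the 12 h library at 400 µM ended this call (adjusted p = 0.102), and dropping either 800 µM library from the fit gave 3 calls, all lower. At 800 µM, 409 transcripts were called (3.26%), 352 higher (2.8%) and 57 lower (0.454%), all with at least a 2-fold change and 240 with at least a 4-fold change. ENSMODT00000001267 was among them (-6.33, SE 0.658, edgeR adjusted p = 0.000129). The same 4 controls serve both concentrations. DESeq2 called 10 at 400 µM and 1240 (947 higher) at 800 µM.

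The direct test of 800 against 400 µM called 2 transcripts (0.0159%), both higher at 800 µM, and DESeq2 called 82 (80 higher). For most transcripts these data do not show that the concentrations acted alike or differently. Its 95% interval reached a median of 1.21 log2 units to each side, so 13.5% of transcripts had it inside 2-fold and 56.1% inside 4-fold. At 400 µM against control it reached 0.95, and 28.3% had it inside 2-fold.

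**Figure D3:**
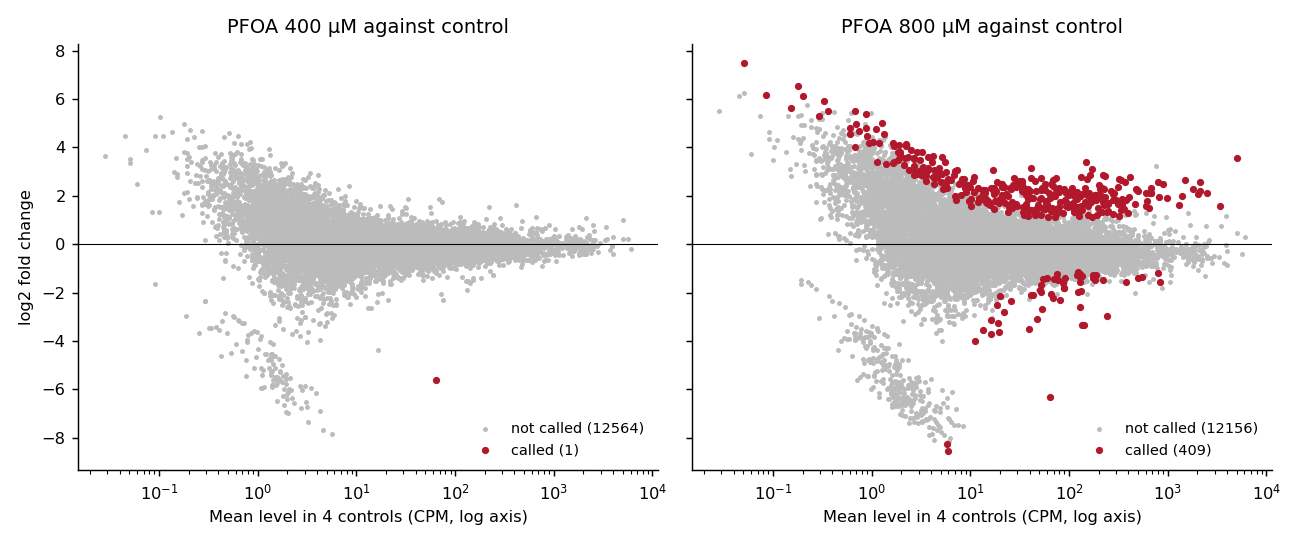
Log2 fold change against control by mean control level (CPM, log axis), each point a transcript, for 400 µM (left) and 800 µM (right); red marks the 1 and 409 transcripts called. At 800 µM the called transcripts lie mostly above 0 and span the whole range of control levels, while at 400 µM the 1 called transcript lies far below.

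The 352 transcripts that rose at 800 µM had a median log2 fold change of 2.16 there and of 0.56 at 400 µM, against -0.11 and -0.03 for all transcripts tested. By library, their median log2 ratio to own-time controls was 0.37 at 400 µM and 1.06 at 800 µM at 12 h, and 0.85 and 2.96 at 24 h. Between the 2 controls of a time it was 0.34 (12 h, R1 minus R2) and 0.04 (24 h, R2 minus R3), so the 12 h value at 400 µM is close to the difference between controls. The 57 that fell had medians of -0.55, -1.54, -0.82 and -2.45 in the same order. The 24 h library at 800 µM therefore had the most extreme median in both lists. The levels of the 352 in controls ran from 0.0511 to 5027 CPM, with a median of 37.8 CPM against 20.0 CPM for all tested. In 350 of the 352 and all 57, the 800 µM libraries lay outside the controls of their time, against 45.8% of all transcripts tested. These values describe transcripts chosen from these libraries.

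The largest rises at 800 µM were in transcripts close to undetected in controls. Both transcripts below passed the low-count filter only through PFOA libraries, as no control reached its level. Their adjusted p-values therefore belong to transcripts admitted by the group in which they are high, and are descriptions. ENSMODT00000034869 had 1 count in all 4 controls together (0.204 CPM in the 24 h control R2). At 400 µM it had no count at 12 h and 2.499 CPM at 24 h, and at 800 µM it had 0.871 and 38.1 CPM. The 800 µM libraries together held 14 counts, where the controls of their own times predict 0.0322. With both times pooled they had 171 times the control level, with an exact interval of 26.0 to 7217 that shows how little 1 control count fixes the ratio (fitted log2 fold change 7.48, edgeR adjusted p = 0.0288). ENSMODT00000026865 was at 0 CPM in 3 controls and 0.725 CPM in the 24 h control R3, at 0 and 8.75 CPM at 400 µM (12 and 24 h) and at 5.66 and 9.52 CPM at 800 µM. The 800 µM libraries together held 16 counts, where controls of their own times predict 0.114. With both times pooled that is 48.8 times the control level (exact interval 15.7 to 200.4, on 4 control counts, fitted log2 fold change 6.54, edgeR adjusted p = 0.0415). In the untreated time course both had medians of 0.0621 CPM or less at every time up to 72 h. The first lost its call without the 12 h control R2 (adjusted p = 0.0613), either 24 h control (0.143 and 0.162), the 24 h library at 400 µM (0.0530) or that at 800 µM (0.449). The second lost it without any 1 of the 8 libraries (0.0678 to 0.207).

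The largest falls at 800 µM were in 2 transcripts with no count in either library. ENSMODT00000008915 was at 10.7 and 9.95 CPM in 12 h controls and at 1.84 and 1.27 CPM in 24 h controls. At 400 µM it was at 1.45 CPM at 12 h and 0 CPM at 24 h. The control level predicts 24.2 counts in the 800 µM libraries, so a level up to 15.2% of control is allowed (exact Poisson 95% interval, edgeR adjusted p = 0.0369). At 24 h alone the PFOA libraries would hold 1.73 counts at the control level, so its absence there was not detectable at this depth. ENSMODT00000033074 was at 5.19 and 10.3 CPM in 12 h controls and 2.45 and 5.26 CPM in 24 h controls, and at 10.1 and 2.499 CPM with 400 µM (12 and 24 h). The control level predicts 18.96 counts at 800 µM, so a level up to 19.5% of control is allowed there (exact Poisson 95% interval, edgeR adjusted p = 0.0495). At 400 µM it held 125% of the control level (exact Poisson interval 90.9 to 168%; log2 fold change 0.07, 95% interval -1.47 to 1.62). The direct test of 800 against 400 µM did not call it (edgeR adjusted p = 0.382). The call of ENSMODT00000008915 was lost without any 1 of the 8 libraries but the 24 h one at 400 µM (adjusted p = 0.0514 to 0.481), and that of ENSMODT00000033074 without any 1 of the 8 (0.0572 to 0.317).

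The 800 µM list leaned on the 24 h libraries, where treatment and R number cannot be told apart. Without the 24 h library at 800 µM, 16 transcripts were called (9 higher), and without the 12 h one 2613 (953 higher, 1660 lower), with the lone library then assumed to vary like the other groups. Without the 24 h control R2 or R3 the counts were 34 and 36, without the 12 h control R2 170, without the 12 h or 24 h library at 400 µM 230 and 216. With all libraries thinned to 366269 counts, 364 were called (323 higher) of 6897 tested. With the 10 or the 100 most abundant transcripts removed before scaling, the counts were 405 and 386 (347 and 320 higher). The second of these was added after the data were seen.

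The most abundant transcript of fresh blood in the time course, ENSMODT00000014407, rose steeply at 800 µM. It was at 5465 and 5301 CPM in 12 h controls and at 4209 and 5135 CPM in 24 h controls. With 400 µM it reached 12539 CPM at 12 h and 8009 CPM at 24 h, and with 800 µM 52576 and 64069.6 CPM. All 4 PFOA libraries stood above every control, and the 800 µM libraries above the 400 µM ones. The 12 h GenX libraries were above every control too, at 5604 CPM (R3) and 15384 CPM (R4). Its log2 fold change was 3.55 at 800 µM (SE 0.366, edgeR adjusted p = 0.000129), a call that held in all 15 alternatives, and 1.02 at 400 µM (SE 0.362, edgeR adjusted p = 0.742). The direct test of 800 against 400 µM did not call it (log2 difference 2.54, SE 0.458, edgeR adjusted p = 0.177). Its share of the library was 5.00% (95% Clopper-Pearson interval 4.98 to 5.03%) at 12 h and 5.51% (5.44 to 5.59%) at 24 h with 800 µM, against 0.459 to 0.570% in controls. In the time course the medians of its level were 683203 CPM in fresh blood, 383480.3 CPM at 12 h and 183381 CPM at 24 h. Single libraries varied widely, from 109747 to 689660 CPM at 0 h, 52719 to 798047 CPM at 12 h and 12759 to 296149 CPM at 24 h. All of these lay above the controls of the treatment experiment. The 2 experiments were scaled separately, so their levels are not tested against each other.

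Counted library by library at equal depth, 2.43 to 8.71% of transcripts stood 2-fold off both controls in 3 PFOA libraries and 45.7% in the 24 h one at 800 µM, beside 5.50 and 7.79% between the controls of a time. All 8 libraries were thinned to 366269 counts, and 5508 transcripts with a mean of 10 or more counts were set against both controls of the same time (ratios with 0.5 counts added). At 12 h and 400 µM, 40 transcripts were at least 2-fold above and 94 at least 2-fold below both controls (0.726 and 1.71%). At 12 h and 800 µM, 70 were above and 234 below (1.27 and 4.25%). The 12 h controls differed from each other by 2-fold for 303 transcripts (94 higher in R1, 1.71%, and 209 lower, 3.79%; 5.50% together), against 2.43 and 5.52% for the 12 h PFOA libraries. These shares are unlike measures, since a PFOA library has to clear both controls and a control only the other. The rule is thus stricter for the PFOA libraries.

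At 24 h and 400 µM, 117 transcripts were above and 363 below (2.12 and 6.59%), 8.71% together, against 7.79% between the 24 h controls (4.88% higher and 2.9% lower in R2 than in R3). At 24 h and 800 µM, 413 were above and 2102 below (7.5 and 38.2%), 45.7% together. The thinned counts carry no TMM factors, and the median log2 ratio of that library over the 5508 transcripts was -0.82. In the other PFOA libraries it was 0.002 and -0.12 at 12 h (400 and 800 µM) and -0.14 at 24 h (400 µM). Many of the 2102 may thus reflect a shift of the whole library, which was not tested. The 24 h library at 800 µM also had the smallest total and the largest share in few transcripts. With 1 library per concentration and time there is no test of these counts. Of the transcripts above both controls in both 12 h PFOA libraries (17, or 0.309% of the 5508) and in both 24 h ones (69, or 1.25%), 3 were in all 4, which is 17.6 and 4.35% of those lists. Of those below (27 and 207, or 0.490 and 3.76% of the 5508), 6 were in all 4, or 22.2 and 2.90%. None that lay on one side in both 12 h libraries lay on the opposite side in both 24 h libraries.

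**Figure D4:**
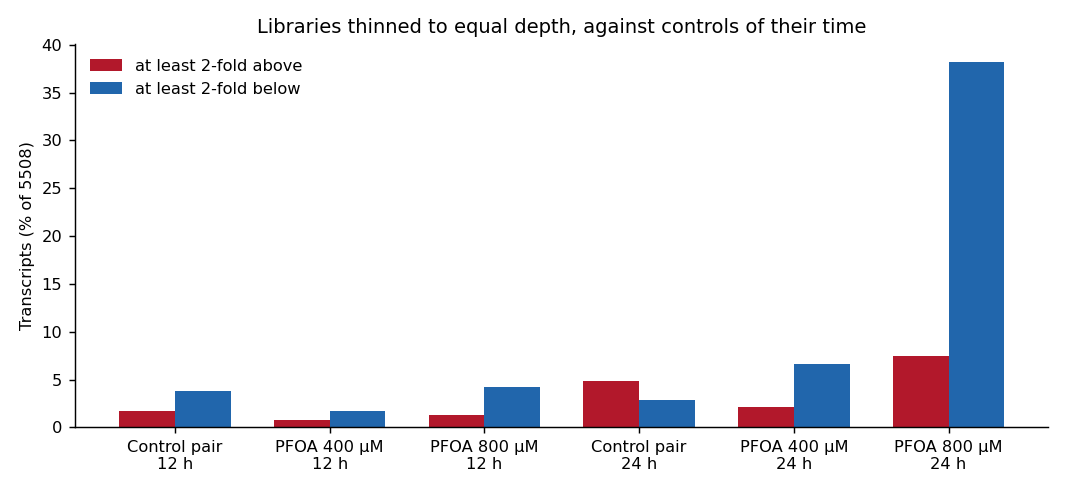
Transcripts at least 2-fold above (red) or below (blue) both controls of the same time, as % of 5508, in each PFOA library thinned to equal depth; the control pair bars show R1 against R2 at 12 h and R2 against R3 at 24 h. The bar for 24 h at 800 µM reaches 38.2% below and 7.5% above, while the other PFOA libraries stay at 6.59% or less. No TMM factors were applied, and the median log2 ratio of the 24 h library at 800 µM is -0.82.

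Transcripts that untreated blood lost or gained in its first 12 h of culture were then read in the PFOA contrasts. In the time course, 560 of 15524 transcripts were lower (3.61%) and 631 higher (4.06%) at 12 than at 0 h by the same edgeR test, and 473 and 516 of them were tested here. Of the 473, 63 rose at 800 µM (13.3%) and 3 fell, against 2.8 and 0.454% of all transcripts tested. Their median log2 fold change was 0.56 against -0.11 over all, and 70.2% lay above 0 against 44.98%. Of the 516 that culture raised, 8 rose and 7 fell at 800 µM (1.55 and 1.36%), with a median of -0.30. At 400 µM no member of the first list was called and 1 of the second fell, with medians of 0.11 and -0.22 against -0.03 over all.

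The same lists read by library showed where the difference sat. The transcripts lost in culture had median log2 ratios to own-time controls of 0.14 at 400 µM and 0.33 at 800 µM at 12 h, and of -0.03 and 0.76 at 24 h, against 0.03, 0.02, -0.10 and -0.47 over all transcripts. The transcripts gained in culture had medians of -0.12, -0.10, -0.33 and -0.56. Between the 2 controls of a time the medians of the lost list were 0.11 (12 h, R1 minus R2) and 0.02 (24 h, R2 minus R3), so the 12 h value at 400 µM is close to the difference between controls. The called members of the lost list went from 63 (of 352 in all) to 1 (of 9) without the 24 h library at 800 µM, where their median was 0.29. They went to 2 without either 24 h control (of 27 without R2, of 29 without R3), to 31 (of 156) without the 12 h control R2 and to 120 (of 953) without the 12 h library at 800 µM. With no time term they went to 0 (of 3). With every library thinned to equal depth, 58 of 259 tested members rose (22.4%), against 4.68% of all 6897 tested. The 24 h library at 800 µM was also the only PFOA or control library whose ranks of levels matched the time course best at 0 h, with a rho of 0.582 at 0 h and 0.556 at 12 h, whereas the 12 h controls had 0.747 and 0.740 at 0 h and 0.786 and 0.790 at 12 h. These correlations are over 5508 transcripts and are descriptions.

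**Figure D5:**
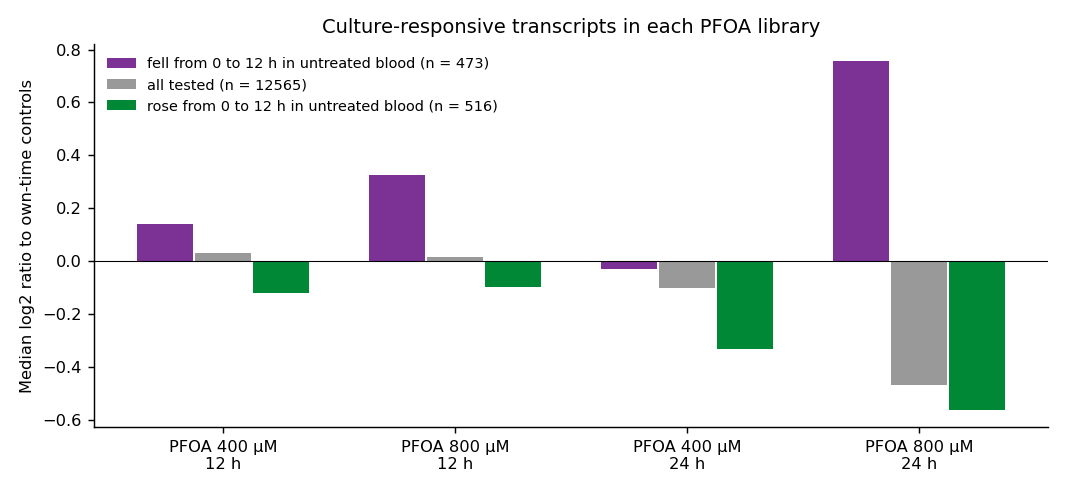
Median log2 ratio of each PFOA library to the controls of its time (log2(CPM + 1) scale) for transcripts that fell (purple, n = 473) or rose (green, n = 516) from 0 to 12 h in untreated blood, and for all tested (grey). At 24 h and 800 µM the purple bar stands at 0.76 while the grey and green bars stand at -0.47 and -0.56.

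The 100 most abundant transcripts of fresh blood, all tested here, had a median log2 fold change of -0.10 at 800 µM, close to that of all transcripts. Of them 19 rose (19%) and 0 fell past the test, against 2.8 and 0.454% of all. Without the 24 h library at 800 µM 4 rose (9 of all 12565), and without the 12 h one 37 rose and 43 fell (953 and 1660 of all). Of the 352 transcripts that rose at 800 µM, 341 were tested in the time course. Among these, 63 (18.5%) were lower at 12 than at 0 h and 109 (32.0%) at 24 than at 0 h, against 3.83 and 6.41% of all transcripts tested in both experiments. Of the 57 that fell, 7 (12.3%) were higher at 12 and 13 (22.8%) at 24 than at 0 h, against 4.18 and 7.36% of all. The same 57 also held 3 (5.26%) that were lower at 12 and 5 (8.77%) lower at 24 than at 0 h, against the 3.83 and 6.41% of all, and 21 (36.8%) lower at 72 h against 26.3%. In the whole time course, 7.11% of transcripts were higher and 6.06% lower at 24 than at 0 h.

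Features that the table names by a symbol in place of an identifier numbered 10, and 6 had enough counts to be tested. Fsnt1 was the 1 that passed in any of the 6 comparisons with control and over time. It was at 0.564 and 2.07 CPM in 12 h controls, 1.84 and 4.35 CPM in 24 h controls, 1.45 and 2.499 CPM with 400 µM (12 and 24 h), and 7.40 and 120.5 CPM with 800 µM. The 400 µM levels lay within the range of the controls and both 800 µM levels above it (log2 fold change 4.14, SE 0.778, edgeR adjusted p = 0.0127 at 800 µM). Its counts in PFOA libraries were needed for it to pass the low-count filter. Dropping the 24 h library at 800 µM (adjusted p = 0.430) or either 24 h control (0.0801 and 0.0860) ended the call. The direct test of 800 against 400 µM did not call Fsnt1 (log2 difference 4.12, SE 1.05, edgeR adjusted p = 0.382).

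The other named features did not pass. Rsx, the RNA that coats the inactive X chromosome of female marsupials, was at 0.451 and 1.27 CPM in 12 h controls, 4.09 and 6.53 CPM in 24 h controls, 2.17 and 11.2 CPM at 400 µM (12 and 24 h), and 1.74 and 47.6 CPM at 800 µM. Its levels were above the controls of their time in all 4 PFOA libraries but did not pass at 800 µM (log2 fold change 2.34, 95% interval 0.53 to 4.14, edgeR adjusted p = 0.146). The 12 h GenX libraries, at 2.17 CPM (R3) and 13.1 CPM (R4), were above both 12 h controls as well. Phlda2_trans, which carries the name of an imprinted growth-restraining gene of placental mammals, was at 14.4 and 6.29 CPM in 12 h controls and 8.99 and 11.4 CPM in 24 h controls. With 400 µM it was at 11.1 and 7.50 CPM, and with 800 µM at 34.4 and 25.4 CPM, so the 2 higher-concentration libraries stood above all controls (log2 fold change 1.57, 95% interval 0.62 to 2.51, edgeR adjusted p = 0.0671). So did the 12 h GenX libraries, at 24.4 CPM (R3) and 38.6 CPM (R4).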

How the data were processed

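Poly(A) RNA was measured in 4 control and 4 PFOA blood cultures, and 15 libraries of an untreated time course were used for reference lists. The authors deposited unnormalized whole-number read counts per transcript. The submitters' processing notes name R 4.1.2, edgeR, bedtools 2.30.0, TopHat2 2.1.1, Bowtie2, Trimmomatic 0.36 and FastQC 11.5. The build, annotation and strand setting were not given in the sources used here. Overlapping, antisense or near-identical transcripts are therefore uncertain. Of 22063 features, 4 duplicates were removed and 22059 used. Among values of 1 to 12 counts 70.9% were even, which shows that counts were not independent, and the counting intervals are narrower than they should be. No identifier matched the reference gene table (mMonDom1.pri, 0 of 22049).

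Counts were tested with the quasi-likelihood F test of edgeR 4.0.16 (under R 4.3.3 with limma 3.58.1; TMM, filterByExpr with a minimum count of 10, Benjamini-Hochberg adjustment, called at an adjusted p under 0.05). Comparisons over both times and by concentration used all 10 treatment libraries with a time term, and comparisons within a time and the interaction used the 8 control and PFOA libraries as 4 means. Named transcripts are at most the 2 largest rises and 2 largest falls called per comparison with a mean of 5 CPM or more in the higher group and no overlap within either time, the most abundant transcript at 0 h, and features named by symbol. DESeq2 1.42.0, RLE scaling, no low-count filter, thinning, a replicate block, fewer libraries and leaving out each library were alternatives. The fits were tested on simulated data. Members, lists and rules were chosen with earlier results of these data known.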

Additional observations from a re-analysis of the deposited data

Results flagged for a closer look

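In groups of 4 libraries, 5 values stood far from the other 3 by Dixon's 95% criterion, of 38 groups checked, where chance flags about 5% of groups. That rate does not hold for 3 of the 5, in which the other 3 libraries were all at 0 and any count would stand apart. The share of counts in the 10 most abundant transcripts was 5.17% in 1 control (12 h, R1), above the 4.61 to 4.68% of the others. ENSMODT00000034869 was at 0.204 CPM in 1 control (24 h, R2), which is 1 count, and at 38.1 CPM in 1 PFOA library (24 h, 800 µM), with at most 2.499 CPM in the other 3. ENSMODT00000026865 was at 0.725 CPM in 1 control (24 h, R3) and at 0 CPM in the rest. ENSMODT00000008915 was at 1.45 CPM in 1 PFOA library (12 h, 400 µM) and at 0 CPM in the rest.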

How the results depend on the processing

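Calls over both times, 10 in the report, were 4 with RLE size factors (2 higher), 640 with no low-count filter, 734 by DESeq2, 2 thinned, 18 with the 8 libraries alone, 2 with no time term and 11 (1 higher) without the 2 PFOA libraries under 1000000 counts (added after seeing the data), and 1 to 95 on leaving out a library. At 12 h, 1 became 75 with no filter, 70 by DESeq2, 0 thinned and 78 in libraries of that time only (0 to 64 on leaving out a library). At 24 h, 1 became 0 with RLE, 1026 with no filter, 1092 by DESeq2, 0 thinned and 0 in libraries of that time only (0 to 3435). For the interaction, 0 became 68 with no filter and 7 by DESeq2 (0 to 2227). At 400 µM, 1 became 54 with no filter, 10 by DESeq2 and 2 thinned (0 to 3). At 800 µM, 409 became 1148 with no filter (622 higher), 1240 by DESeq2 and 4 with no time term (16 to 2613). With the R number as a replicate block the counts were 1 over both times, 0 at 12 h, 0 at 24 h and 87 at 800 µM (78 higher, 8 of them in the list lost in culture). Under the block ENSMODT00000001267 was called over both times (adjusted p = 0.00135) and at 400 µM (0.00436), and ENSMODT00000014407 at 800 µM (0.00243). The other recomputed calls for single transcripts were lost (0.0980 to 0.9998), among them ENSMODT00000001267 at 12 h (0.101) and 24 h (0.9998) and ENSMODT00000003531 (0.156). The labels do not say that a number pairs cultures, so the block is an alternative only.

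With a minimum mean of 30 thinned counts, transcripts 2-fold off both controls were 1.00, 3.41, 5.58 and 48.5% (400 and 800 µM at 12 h, then at 24 h), and at 4-fold 0.200, 0.545, 0.908 and 17.4%. The median of the 100 most abundant transcripts of fresh blood over both times was -0.011 with TMM and 0.037 with RLE. The 20 results for single transcripts were each recomputed under their alternatives. In these repeats the call or its absence was kept 197 times, lost 134 times and gained 5 times, and no direction changed. The cause of these changes was not tested. Depth limits the 24 h PFOA libraries most.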
